A study of Mus musculus with 21 samples.

Results

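RNA polymerase II, the enzyme that transcribes the protein-coding genes of the nucleus, is described here through the transcripts of 10 of its subunits, Polr2a to Polr2j, in whole brains of SAMP8 mice given a Kv1.3 channel blocker or vehicle. The members were taken by gene symbol, and all 10 were present among the 16318 genes measured. The set was chosen on the treatment difference of its long subunit Polr2a, which was already known to be large, so the differences between treatments given for these genes describe them and carry no test. All mice were SAMP8, a senescence-accelerated strain used as a model of sporadic Alzheimer's disease, and they were 6 months old when dosing ended. The treated mice (9, of which 3 were female and 6 male) received the peptide HsTX1[R14A] under the skin on alternate days from 4 months of age, at 1 mg/kg and over 8 weeks, and the control mice (12, of which 6 were female and 6 male) received PBS. Each mouse gave 1 library, each brain had been perfused, and no strain other than SAMP8 was analysed here, so every comparison is between mice that share the SAMP8 background.

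As background, the enzyme is built around its largest subunits, Polr2a and Polr2b, which form the cleft that holds the DNA and the active site between them. Polr2a also carries the long repeated tail, the C-terminal domain (CTD), that kinases and phosphatases mark as the polymerase starts, elongates and terminates. Polr2c and Polr2j pair with each other to form the platform on which the enzyme assembles, Polr2d and Polr2g form a stalk near the RNA exit, Polr2i helps proofreading, and Polr2e, Polr2f and Polr2h are also parts of RNA polymerases I and III. In brain, as elsewhere, the enzyme is present in every cell type that makes mRNA.

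The transcripts of the subunits differ widely in length (Ensembl genes on GRCm38, GENCODE M21). Polr2a (ENSMUSG00000005198, chromosome 11, 69733997 to 69758637, minus strand) has a transcript of 6740 nt in 29 exons, of which 5910 nt are coding. Polr2b (ENSMUSG00000029250, chromosome 5, 77310147 to 77349324, plus strand) has a transcript of 4145 nt in 25 exons. The principal transcripts of the other 8 were much shorter, from 646 nt for Polr2j (ENSMUSG00000039771, chromosome 5, 136116631 to 136122947, plus strand) to 1580 nt for Polr2c. Polr2i (ENSMUSG00000019738, chromosome 7, 30231948 to 30233390, plus strand) has 819 nt. For Polr2c, Polr2e, Polr2f and Polr2j the longest annotated transcript (3881, 2403, 1958 and 900 nt) is not the principal one. The annotation places Igfbp7, Dok4, 1700088E04Rik, Clcn2, Tbcb and Lrwd1 on the opposite strand over parts of Polr2b, Polr2c, Polr2f, Polr2h, Polr2i and Polr2j. An antisense gene, Gm43604, also overlaps Polr2j. Reads from these overlaps could be counted for either gene if strand was not used. A processed pseudogene, Gm42758, overlaps Polr2b on the same strand, so strand would not separate reads there. No other gene overlaps Polr2a, Polr2d, Polr2e or Polr2g.

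The 250 bases before the annotated start were available for 8 of the 10 genes (RefSeq, GRCm38.p6), and those of the members that were highest against PBS (Polr2a and Polr2b) and of the shortest members (Polr2i and Polr2j) are shown, since these genes moved in opposite directions across mice. Capitals mark every match, on either strand, to TATAAA, the letters of a TATA box, to CCAAT, to GGGCGG, the letters of a GC box, or to CCGGAA, the core that ETS factors bind, and these matches do not overlap each other. The windows are chr11:69758634-69758883 on the minus strand for Polr2a, chr5:77310234-77310483 on the plus strand for Polr2b, chr7:30231824-30232073 on the plus strand for Polr2i and chr5:136116441-136116690 on the plus strand for Polr2j. They end at RefSeq starts, which differ from the GENCODE gene bounds given above. The Polr2b window lies wholly inside the GENCODE gene, and those of Polr2a, Polr2i and Polr2j reach partly into theirs.
Polr2a: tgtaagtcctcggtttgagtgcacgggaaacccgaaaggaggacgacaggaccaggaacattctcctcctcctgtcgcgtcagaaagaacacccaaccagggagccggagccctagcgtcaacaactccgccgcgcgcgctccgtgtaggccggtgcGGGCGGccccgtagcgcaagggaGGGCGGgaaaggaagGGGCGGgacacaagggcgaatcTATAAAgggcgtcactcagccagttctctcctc
Polr2b: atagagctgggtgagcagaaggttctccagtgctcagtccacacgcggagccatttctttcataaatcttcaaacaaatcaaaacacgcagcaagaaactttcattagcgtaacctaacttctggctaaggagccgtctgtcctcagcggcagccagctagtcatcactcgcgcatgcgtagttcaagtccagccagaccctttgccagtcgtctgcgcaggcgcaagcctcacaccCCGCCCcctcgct
Polr2i: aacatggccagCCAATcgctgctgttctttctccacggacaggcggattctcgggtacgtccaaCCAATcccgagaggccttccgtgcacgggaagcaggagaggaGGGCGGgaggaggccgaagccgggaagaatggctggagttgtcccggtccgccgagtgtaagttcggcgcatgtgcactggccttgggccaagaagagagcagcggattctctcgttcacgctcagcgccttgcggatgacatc
Polr2j: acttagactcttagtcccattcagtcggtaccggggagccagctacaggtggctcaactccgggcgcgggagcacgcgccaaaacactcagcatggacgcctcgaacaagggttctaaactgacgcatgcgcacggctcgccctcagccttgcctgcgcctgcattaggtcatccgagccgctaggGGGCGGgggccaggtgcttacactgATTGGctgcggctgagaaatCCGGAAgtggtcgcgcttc

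TATAAA began 33 bases before the start of Polr2a, which also held 3 matches to GGGCGG, at 93, 70 and 55 bases before the start. Polr2b held only 1 of these matches, GGGCGG on the opposite strand. Polr2i held CCAAT at 239 and 186 bases and GGGCGG at 144 bases before its start, and Polr2j held CCAAT (opposite strand), GGGCGG and CCGGAA at 39, 64 and 19 bases. Among the 8 members, GGGCGG was found in 6, CCGGAA in 4, CCAAT in 3 and TATAAA in 2 (Polr2a and Polr2c), whereas 32.7%, 12%, 33.8% and 12.4% of all 32851 windows of the same length held them. The Polr2a window was 62.8% G and C with 23 CpG dinucleotides, against medians of 52.4% and 6.0 over all windows. These are matches of letters and say nothing of what binds there.

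Library totals ran from 14917174 to 47613792 estimated counts and their ranges overlapped between treatments. Markers of neurons, astrocytes, oligodendrocytes and microglia were present in every library, and the liver and muscle genes Alb, Apoa1 and Acta1 summed to at most 31.53 CPM (counts scaled to the library size) in any mouse. Xist was at least 261 CPM in each female and at most 3.39 CPM in each male. The libraries carried 2 forms of name, the more common in 10 PBS and 5 HsTX1[R14A] libraries and the less common in 2 and 4, so the treatment difference of each subunit is also given within each form. Libraries also differed in how their counts were spread over short and long transcripts. The length slope of a library was taken as the slope of log2 CPM, relative to the mean of all mice, on log2 transcript length over 16017 genes that belong to none of the lists used here. It was -0.08 ± 0.16 (SD, n = 12, range -0.39 to 0.15) log2 units per doubling of length in PBS mice and 0.10 ± 0.12 (SD, n = 9, range -0.14 to 0.23) in HsTX1[R14A] mice.

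Polr2a was uneven in the PBS brains. Its level in the 6 PBS females was 4.54, 9.47, 20.6, 26.8, 30.5 and 43.1 CPM, and in the 6 PBS males 5.56, 7.31, 14.8, 16.3, 19.03 and 25.99 CPM. The highest PBS mouse thus held 9.49 times the lowest, and the estimated counts behind these values ran from 64 to 1137. On the log2 scale the standard deviation of Polr2a over the 12 PBS mice was 1.02, larger than that of 99.4% of the 2498 genes within 0.5 log2 CPM of its mean level, whose median was 0.24. The other 9 subunits varied far less, with standard deviations from 0.24 (Polr2e) to 0.40 (Polr2j), which exceeded those of 54.2% to 82.7% of genes at their own levels.

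**Figure D1:**
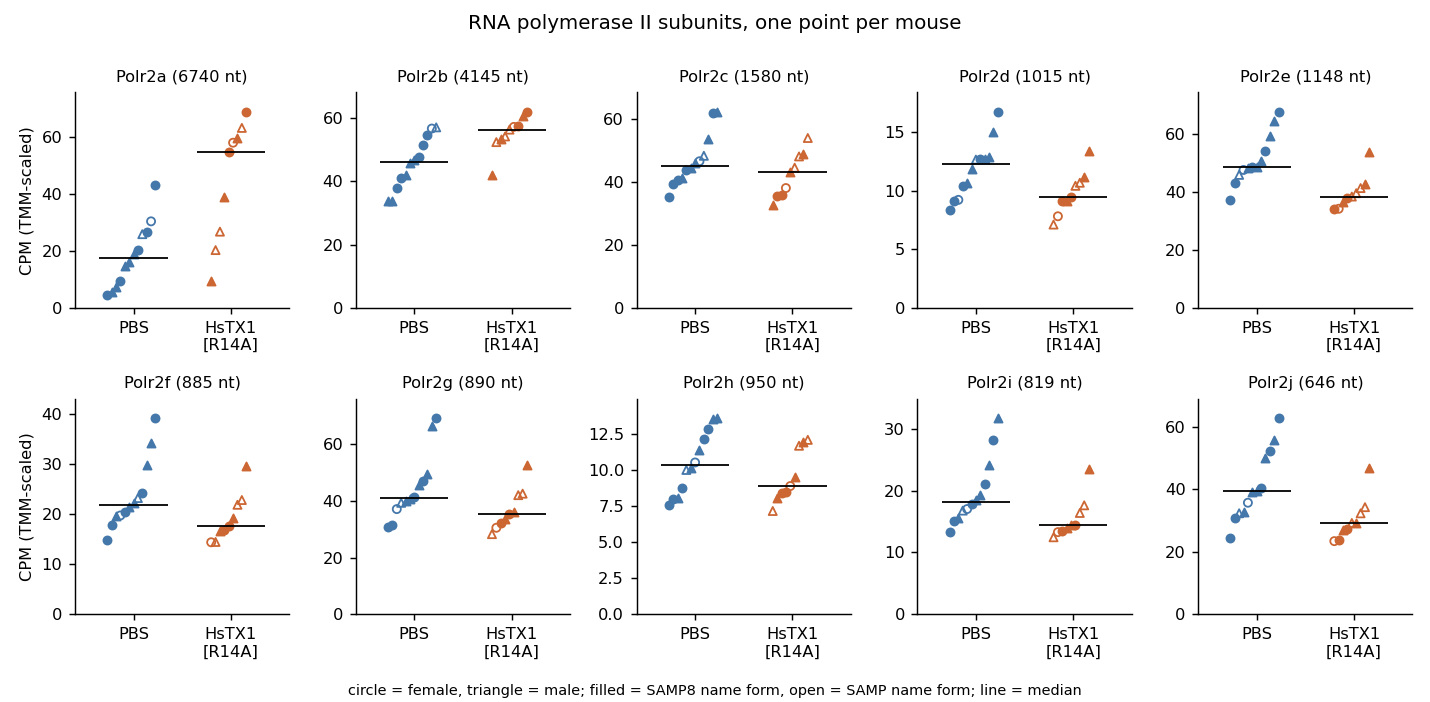
Level of each RNA polymerase II subunit in CPM (TMM-scaled), 1 point per mouse, for 12 PBS and 9 HsTX1[R14A] mice, with the principal transcript length in each title and a line at each median. Polr2a ran from 4.54 to 43.1 CPM in PBS mice and from 9.71 to 68.9 in HsTX1[R14A] mice, and the ranges of the groups overlapped for all 10 genes.

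Levels of different genes were compared per kilobase of principal transcript, without correction for the length slope of the libraries. The longest transcripts of Polr2c, Polr2e, Polr2f and Polr2j (3881, 2403, 1958 and 900 nt) are longer than the principal ones. Divided by those, these genes would stand lower, so the order depends on the transcript taken. In PBS mice Polr2j stood highest at 64.0 ± 17.8 CPM per kb (SD, n = 12), followed by Polr2g at 50.4 ± 13.5, Polr2e at 44.7 ± 7.63, Polr2c at 29.6 ± 5.33, Polr2f at 27.1 ± 7.99 and Polr2i at 24.2 ± 6.74 CPM per kb. Polr2d (11.7 ± 2.42), Polr2h (11.1 ± 2.29) and Polr2b (10.99 ± 1.98) formed a lower tier, and Polr2a was lowest at 2.77 ± 1.71 CPM per kb. The steps from Polr2j to Polr2g, from Polr2e to Polr2c, from Polr2i to Polr2d and from Polr2b to Polr2a were the same in 12 of 12 PBS mice, whereas Polr2d exceeded Polr2h in 9 and Polr2h exceeded Polr2b in only 6, so the order within the lower tier did not hold across mice. Polr2a was the lowest of the 10 in every PBS mouse.

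**Figure D2:**
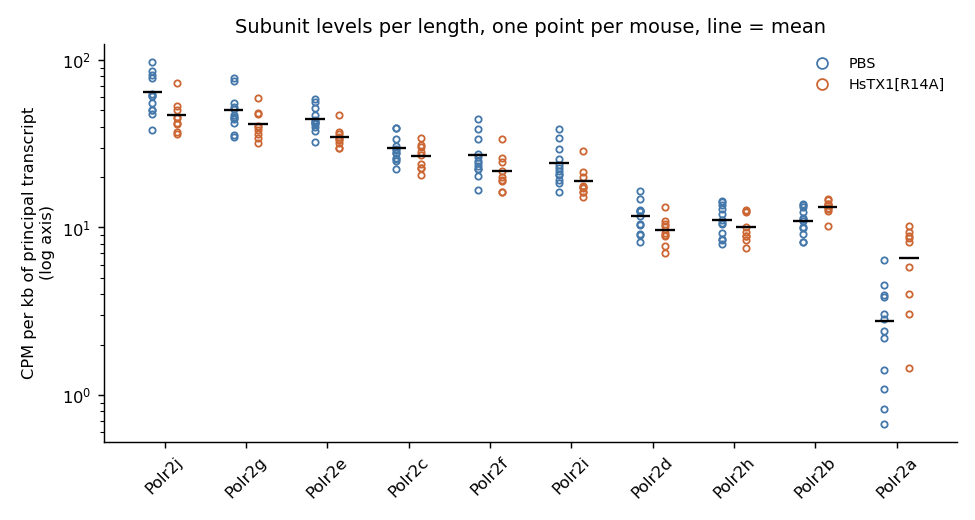
Level of each subunit in CPM per kb of principal transcript (log axis), 1 point per mouse, with subunits ordered by their PBS mean and a line at each group mean. Polr2a was lowest in all 12 PBS mice, at 2.77 CPM per kb on average, against 64.0 for Polr2j.

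In HsTX1[R14A] mice Polr2a reached 54.9, 58.1 and 68.9 CPM in the 3 females and 9.71, 20.4, 26.9, 38.9, 59.8 and 63.3 CPM in the 6 males. Of the 9 treated mice, 8 lay above the PBS median of 17.6 CPM and 5 above every PBS mouse, while mouse 93, a male, lay at 9.71 CPM among the lowest PBS mice. The group means were 44.5 ± 21.2 CPM (SD, n = 9) and 18.7 ± 11.5 CPM (SD, n = 12), and with sex in the model the difference was 2.55-fold (log2 fold change 1.35 ± 0.35, SE). Only 21 of the 16285 genes tested had a larger log2 fold change. Per kilobase Polr2a was last among the 10 subunits in every PBS mouse. In treated mice it ranked between 8 and 10, was also last in mice 72, 74, 89, 92 and 93, and was below Polr2b in all 9. Its share of the summed CPM per kb of the subunits averaged 3.08% (0.466% to 4.96%) in treated mice and 1.14% (0.172% to 3.24%) in PBS mice. In bulk tissue a change in the number of cells and a change in RNA per cell cannot be told apart.

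Polr2b, the partner of Polr2a in the active site, differed the same way but by less. It ran from 33.7 to 56.9 CPM with a median of 46.0 in PBS mice and from 42.0 to 61.7 CPM with a median of 56.2 in treated mice. Here 8 of 9 treated mice lay above the PBS median and 4 above every PBS mouse. The log2 fold change was 0.295 ± 0.095 (SE).

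All 8 short subunits had a negative log2 fold change. For the assembly pair, Polr2j had a PBS median of 39.4 CPM (24.5 to 62.7) and a treated median of 29.2 CPM (23.4 to 46.9), a log2 fold change of -0.48 ± 0.16 (SE). Polr2c had a PBS median of 45.1 CPM (35.2 to 62.0) and a treated median of 43.0 CPM (32.7 to 53.8), a log2 fold change of -0.19 ± 0.10 (SE). Polr2j was thus below its PBS median in 8 of 9 treated mice, with its partner Polr2c below in 6. Among the subunits shared with the other polymerases, Polr2e had a PBS median of 48.8 CPM (37.1 to 67.6) and a treated median of 38.5 CPM (34.1 to 53.7), a log2 fold change of -0.39 ± 0.10 (SE). Polr2f and Polr2h had log2 fold changes of -0.35 ± 0.16 and -0.17 ± 0.12 (SE). For Polr2e, 3 treated mice lay below every PBS mouse, more than for any other subunit. The proofreading subunit Polr2i had a PBS median of 18.2 CPM (13.3 to 31.7) and a treated median of 14.4 CPM (12.4 to 23.5), a log2 fold change of -0.39 ± 0.15 (SE). The stalk subunits Polr2d and Polr2g had log2 fold changes of -0.30 ± 0.12 and -0.31 ± 0.14 (SE).

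Over all genes tested, edgeR called 31.6% different between treatments at an FDR of 0.05, 15.5% higher and 16.1% lower in HsTX1[R14A] mice. Of the 10 members, 2 were called higher (Polr2a and Polr2b), 3 lower (Polr2e, Polr2i and Polr2j) and 5 were not called. The choice of the set rests on this contrast, and nothing is read from these counts. Within the 15 mice of the more common name form the log2 fold change of Polr2a was 1.54 ± 0.44 (SE) and within the other 6 mice it was 0.67 ± 0.43. For Polr2b these values were 0.36 ± 0.11 and -0.04 ± 0.13, and for Polr2e -0.37 ± 0.14 and -0.31 ± 0.13. For Polr2i they were -0.39 ± 0.20 and -0.21 ± 0.18, and for Polr2j -0.50 ± 0.22 and -0.26 ± 0.17. Among the members not called, Polr2c had values of -0.276 ± 0.139 and -0.105 ± 0.147 in the more common and the other form, and Polr2d of -0.23 ± 0.15 and -0.35 ± 0.20. Polr2f had values of -0.31 ± 0.22 and -0.32 ± 0.20, Polr2g of -0.30 ± 0.19 and -0.15 ± 0.19, and Polr2h of -0.21 ± 0.16 and -0.07 ± 0.24. Polr2b was thus higher with treatment in the more common form and near 0 in the other, and none of the 10 passed the FDR within either form alone. Across all genes none passed it in either form (edgeR, 5797 of 16296 and 507 of 15910 genes at an unadjusted p under 0.05). Leaving out PBS mouse 90 ended the calls of Polr2b, Polr2i and Polr2j, leaving out any 1 of treated mice 71, 72, 88 and 98 left Polr2e as the only member called lower, and leaving out treated mouse 93 raised the count of members called lower from 3 to 6. Polr2i was not called without any 1 of 13 mice.

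Over all genes the treatment difference was larger the longer the transcript. Genes whose longest transcript was at most 1000 nt had a median log2 fold change of -0.46 (982 genes), those of 1000 to 2000 nt -0.21, those of 2000 to 4000 nt -0.04, those of 4000 to 6000 nt 0.11, those of 6000 to 8000 nt 0.23 (1305 genes) and longer ones 0.34 (910 genes). The short subunits Polr2i and Polr2j, at -0.39 and -0.48, lay near the median of their band, and Polr2g (890 nt) and Polr2h (950 nt), at -0.31 and -0.17, lay above it and within its 5th to 95th percentile of -0.90 to 0.13. By longest transcript, Polr2d and Polr2f, at -0.303 and -0.351, lay below their band median of -0.21 (5th to 95th percentile -0.666 to 0.316). Polr2c and Polr2e, at -0.189 and -0.392, lay below their band median of -0.04 (5th to 95th percentile -0.519 to 0.475). These positions depend on the transcript taken. By principal transcript Polr2f (885 nt), Polr2c (1580 nt) and Polr2e (1148 nt) would fall in shorter bands. There Polr2f and Polr2c would lie above the medians of -0.46 and -0.21, and Polr2e still below that of -0.21. Polr2b lay above the median of its band, 0.11, and within its 5th to 95th percentile of -0.37 to 0.63. Polr2a, at 1.35, had the highest value of the 1305 genes between 6000 and 8000 nt. When the slope was added to the model as a covariate, the log2 fold change of Polr2a was 0.17 ± 0.16 (SE), that of Polr2b 0.05 ± 0.07 and that of Polr2e -0.10, and the values of Polr2c, Polr2d and Polr2f to Polr2j turned to between 0.01 and 0.16. None of the 16303 genes tested in that model passed the FDR in edgeR, and 1863 had an unadjusted p under 0.05, among them 2 of the members. Treatment and length slope moved together in these mice, so this model gives each gene's difference at equal slope.

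**Figure D3:**
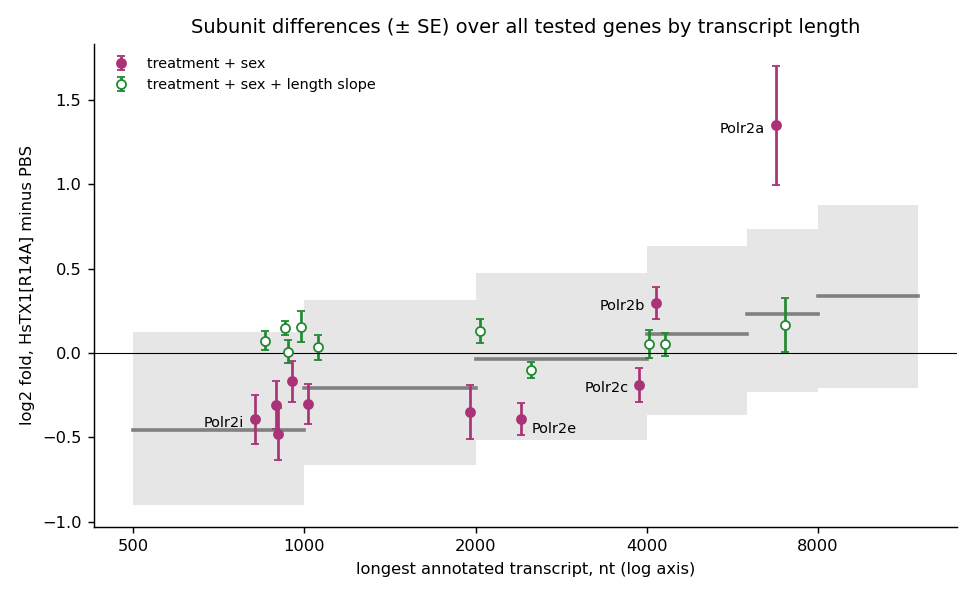
Log2 fold change of each subunit (HsTX1[R14A] minus PBS, ± SE) against the length of its longest annotated transcript (log axis), with grey lines at the median and grey bands from the 5th to the 95th percentile of all tested genes in each length band. Filled points come from the model with treatment and sex, where Polr2a stood at 1.35, and open points (drawn slightly to the right) from the model with the length slope added, where it stood at 0.17.

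Some markers of cell types were called different between treatments, where 31.6% of all genes tested were called (15.5% higher and 16.1% lower, edgeR, FDR 0.05). Of 4 markers for each cell type, 1 neuronal gene (Syt1) and 1 endothelial gene (Flt1) were higher in treated mice, 2 astrocyte genes (Gfap and Aqp4), 2 oligodendrocyte genes (Mbp and Mog) and 1 microglial gene (P2ry12) were lower, and none of the 4 choroid plexus or 5 erythrocyte markers passed the FDR. Of the 3 liver and muscle genes tested, Apoa1 was lower. The summed oligodendrocyte markers ran from 3218 to 4741 CPM in PBS mice and from 2360 to 3655 CPM in treated mice, the neuronal ones from 4071 to 6482 and from 4647 to 7150 CPM, the astrocyte ones from 673 to 1312 and from 703 to 1041 CPM, and the microglial ones from 220 to 295 and from 191 to 263 CPM. The endothelial markers summed to between 32.0 and 74.5 CPM in PBS mice and between 42.4 and 83.5 CPM in treated mice. The part of these cell types in the subunit levels was not tested.

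Whether Polr2a varies with the rest of its complex was examined without the treated mice. Over the 12 PBS mice, log2 CPM of Polr2a rose with that of Polr2b (Pearson r = 0.914, Spearman rho = 0.916) and fell with that of each of the other 8 subunits, with r from -0.801 for Polr2c to -0.944 for Polr2e. All 9 relations passed a permutation test of mice with Benjamini-Hochberg adjustment over the 9 (100000 resamples, two-sided, highest adjusted p = 0.00195 for r and 0.0319 for rho). With the same test by r and adjustment over all genes, 52.9% of the other 16284 genes tested also passed (27.9% with a positive and 25.0% with a negative r), so a relation to Polr2a was common among genes and nothing particular to the complex is read from the 9. The median absolute r over all of them was 0.664, and 33.9% of them had one at least as large as that of Polr2c, the weakest of the 9. The mice farthest from the median of Polr2a were 103 and 90, and without them the relation to Polr2c no longer held (r = -0.543, permutation test, adjusted p = 0.101), that to Polr2d and to Polr2f was at r = -0.652 and -0.643 (adjusted p = 0.0495), and that to Polr2b was at r = 0.912. By rho, the relations of Polr2f, Polr2h and Polr2j then also missed the threshold (adjusted p = 0.247, 0.0638 and 0.0538, permutation test). Within the 10 PBS mice of the more common name form all 9 relations passed, with r of 0.917 for Polr2b and between -0.877 and -0.963 for the others, and the 2 PBS mice of the other form were too few for a value. The short subunits varied together. Among the 28 pairs of Polr2c to Polr2j, r ran from 0.733 to 0.966 with a median of 0.862, as a description of levels that come from the same libraries. In the 9 treated mice the 9 relations had the same signs and also passed an exact permutation test by r (0.918 for Polr2b, -0.764 to -0.954 for the others, highest adjusted p = 0.0131), while by rho Polr2i missed the threshold (exact permutation test, adjusted p = 0.0503).

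The same division appeared against the length slope of the libraries. Over the 12 PBS mice, Polr2a (r = 0.953, rho = 0.923) and Polr2b (r = 0.845, rho = 0.902) were higher where long transcripts held more of the counts, and the other 8 were lower, from r = -0.828 for Polr2c to r = -0.990 for Polr2g (rho = -0.587 and -0.993). All 10 relations passed the permutation test with adjustment over the 10 (100000 resamples, two-sided, highest adjusted p = 0.00107 for r and 0.0482 for rho). Over all 16285 genes tested, from most of which the slope itself was computed, 55.5% passed by r with adjustment over all of them (29.7% positive and 25.8% negative), with a median absolute r of 0.690. The smallest p that these permutations can give is 1e-05, and Polr2a, Polr2e, Polr2g, Polr2i and Polr2j were at it. Without mice 103 and 90, which were also farthest from the median slope, Polr2c no longer held (r = -0.513, permutation test, adjusted p = 0.125), and the other 9 did, with r = 0.912 for Polr2a and -0.968 for Polr2g. Within the 10 PBS mice of the more common name form the values were 0.954 for Polr2a and -0.991 for Polr2g, and in the 9 treated mice 0.969 and -0.971. In the treated mice all 10 relations passed by r, and by rho that of Polr2c did not (exact permutation test, adjusted p = 0.121). PBS mouse 103, which held the lowest Polr2a (4.54 CPM) and the highest Polr2j (62.7 CPM), had the lowest slope (-0.39), and PBS mouse 84, with the highest Polr2a (43.1 CPM), had the highest slope among PBS mice (0.15). The treated mouse with the lowest Polr2a, mouse 93, was the only treated mouse with a negative slope (-0.14).

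**Figure D4:**
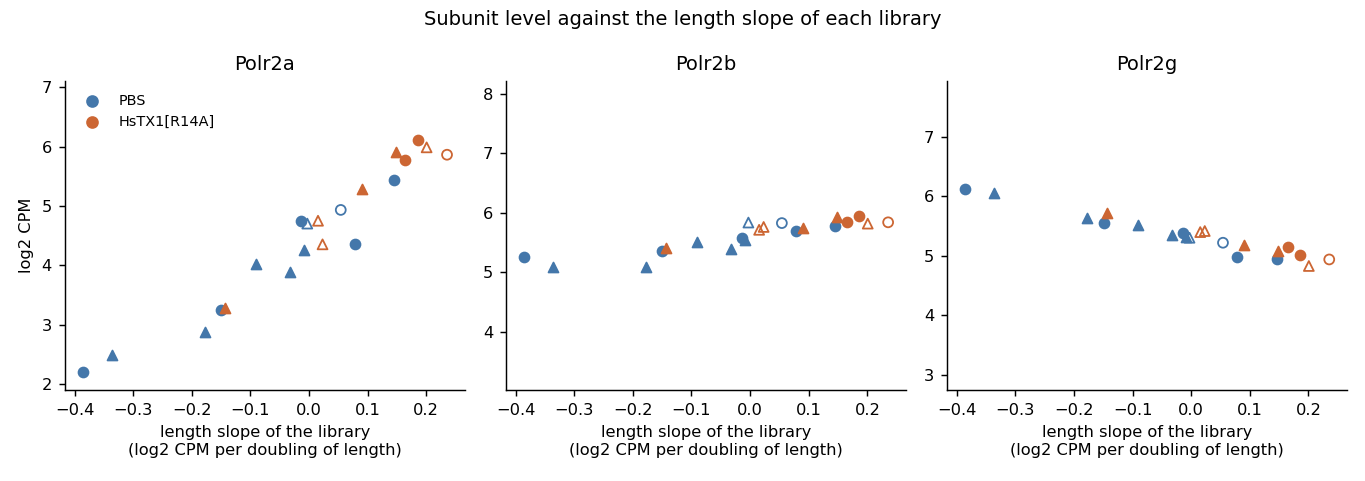
Log2 CPM of Polr2a, Polr2b and Polr2g against the length slope of each library (log2 CPM per doubling of transcript length), 1 point per mouse, circles for females and triangles for males, open symbols for the less common name form, with a y axis of the same height in each panel. Over the 12 PBS mice r was 0.953 for Polr2a, 0.845 for Polr2b and -0.990 for Polr2g.

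Genes most like Polr2a over the 12 PBS mice, among 10462 genes with a mean of at least 3 log2 CPM, included Prr12 (r = 0.992), Kdm4b (0.992), a histone demethylase, Bcan (0.991), a proteoglycan of the brain matrix, and Gtf3c1 (0.991), a subunit of the RNA polymerase III factor TFIIIC. Their longest transcripts have 7023, 4577, 3141 and 6961 nt. The genes most like Polr2i were Atp5j (r = 0.995), a subunit of ATP synthase, then Vti1b (0.989), Mrpl18 (0.989), a mitochondrial ribosomal protein, Anapc13 (0.988) and Fdx1l (0.987), with longest transcripts of 927, 1490, 1219, 1216 and 951 nt. Each of these genes near Polr2a had a longer transcript than each of those near Polr2i.

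Sex was a contrast that the choice of genes did not use. Over all genes 0.0553% differed between males and females at an FDR of 0.05 (0.0307% higher and 0.0246% lower in males), and none of the 10 subunits did (edgeR, adjusted p from 0.446 to 0.535, with 0 of the 10 at an unadjusted p under 0.05 in edgeR, 2 in limma/voom and 1 in DESeq2). Polr2a averaged 22.5 CPM in PBS females and 14.8 CPM in PBS males, and 60.6 and 36.5 CPM in treated females and males, a log2 difference of -0.66 ± 0.35 (SE, male minus female, edgeR adjusted p = 0.446). Polr2b had a difference of -0.155 ± 0.095 (SE) and the 8 short subunits had differences from 0.15 to 0.23. The log2 level of Polr2a relative to the mean of the other 9 was -0.58 ± 1.48 (SD, n = 6) in PBS females and -1.147 ± 1.031 (SD, n = 6) in PBS males (exact permutation test, two-sided, p = 0.455), a difference of -0.56 that lay within the spread between mice. Within the more common name form it was -0.62 (exact permutation test, p = 0.476). For the interaction of treatment and sex, 0.0% of genes passed (edgeR, 270 of 16303 at an unadjusted p under 0.05), with an adjusted p of 1.0 for each of the 10 subunits. The standard error of that term ran from 0.20 (Polr2b) to 0.74 (Polr2a) on the log2 scale, with 3 treated females, so a difference in response of that size was not detectable.

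The other genes of the transcription machinery were taken from 8 lists, and 147 of their genes were tested. Of these, edgeR called 37 higher and 33 lower in HsTX1[R14A] mice, with a median log2 fold change of 0.02 against -0.01 for all genes tested. The counts of these lists stand against the 15.5% higher and 16.1% lower among all genes. The lists were chosen with earlier results of these data known. Apart from Polr2l, the genes named from them are those with the smallest p of this contrast in each direction. Their values and adjusted p therefore describe them and are no independent test. The counts depended on the mice used, with 17 higher and 12 lower without treated mouse 98, 18 and 10 without PBS mouse 90, 24 and 17 without treated mouse 72, and 22 and 17 without treated mouse 81, while the count lower was 21, 14 and 15 without PBS mouse 101 and treated mice 71 and 88. Within the 15 mice of the more common name form and within the other 6, none of these genes passed the FDR (edgeR, 61 and 1 of them at an unadjusted p under 0.05). The remaining subunits of RNA polymerase II fell, 3 of 3, with a median of -0.43, but only 1 of them was called without PBS mouse 90 or without any 1 of treated mice 71, 72, 81, 88 and 98. Polr2k, a short subunit shared by all nuclear RNA polymerases, fell from 19.5 ± 8.72 CPM (SD, n = 12) to 12.1 ± 4.03 CPM (SD, n = 9), a log2 fold change of -0.73 (edgeR adjusted p = 0.0305). Polr2m, which encodes Gdown1, a protein that associates with the polymerase, fell by 0.30 on the log2 scale (edgeR adjusted p = 0.02), and Polr2l, shared like Polr2k and named after its value was seen, fell by 0.43 (adjusted p = 0.0341).

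RNA polymerases I and III make ribosomal and transfer RNA, and the largest subunits of each were higher with treatment. Polr1a and Polr1b had log2 fold changes of 0.55 and 0.39 (edgeR adjusted p = 0.0265 and 0.017), and Polr3a and Polr3b of 0.49 and 0.40 (adjusted p = 0.0172 and 0.0166). Polr3b went from 12.8 ± 2.56 CPM (SD, n = 12) to 16.6 ± 1.45 CPM (SD, n = 9), and all 9 treated mice were above the PBS median. In contrast Twistnb, a small subunit of RNA polymerase I whose longest transcript is nonetheless 4325 nt, fell by 0.36, and Crcp and Polr3k of RNA polymerase III fell by 0.40 and 0.27 on the log2 scale (adjusted p = 0.0233, 0.0193 and 0.0489). Polr3k was not called without any 1 of 14 mice, nor Polr1a without any 1 of 3. Of the 8 and 11 subunits tested, 5 and 7 did not pass.

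Among 32 general transcription factors, 2 were higher, 10 lower and 20 did not pass, with a median of -0.07. Taf2 rose by 0.17 and Ercc2, a helicase of TFIIH, by 0.34, while Taf13 fell by 0.52 and Gtf2a2, the small subunit of TFIIA, by 0.59 on the log2 scale (edgeR adjusted p from 0.0172 to 0.0496). Ercc2 was not called without any 1 of 14 mice and Taf2 without any 1 of 4, and leaving out 1 mouse at a time gave 0 to 3 general factors higher and 3 to 12 lower. Of 33 Mediator genes, which link the polymerase to activators, 7 were higher (2 without treated mouse 98) and 10 lower (3 without PBS mouse 90), with a median of -0.04. Med1 and Med12l rose by 0.34 and 0.38, and Med21 and Ccnc fell by 0.74 and 0.40 (adjusted p from 0.0171 to 0.0212). The median transcript of the Mediator genes that rose was 8024 nt and of those that fell 1923 nt.

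The lists of elongation factors, of CTD enzymes and assembly factors, and of Integrator had positive medians. Their genes also had the longest median transcripts of the 8 lists, 3565, 4504 and 4294 nt, with Mediator next at 3484 nt. Of 29 elongation factors, 10 rose (5 without PBS mouse 90), 4 fell (2 without it) and 15 did not pass, with a median of 0.14. Supt6, a histone chaperone that travels with the polymerase, went from 90.5 ± 30.5 CPM (SD, n = 12) to 140 ± 36.2 CPM (SD, n = 9), a log2 fold change of 0.68 (edgeR adjusted p = 0.0194). Ctr9 of the PAF complex rose by 0.35, whereas Tcea1, which rescues stalled polymerase, fell by 0.52 and Nelfe, a subunit of the pausing factor NELF, by 0.27 (adjusted p from 0.0162 to 0.021). Of 17 genes for CTD kinases and phosphatases, CTD-binding proteins and factors that assemble the polymerase, 8 rose (4 without PBS mouse 90) and 3 fell (0 without it), with a median of 0.21. Cdk12, a CTD kinase, and Rprd2 rose by 0.56 and 0.54, and the CTD phosphatases Ctdsp1 and Ssu72 fell by 0.25 and 0.35 (adjusted p from 0.0162 to 0.0434). Ssu72 was not called without any 1 of 12 mice. Of 14 Integrator subunits, which cleave nascent RNA, 6 rose and 0 fell at the FDR, with a median of 0.13 and Ints3 and Ints5 at 0.55 and 0.34 (adjusted p = 0.016 and 0.0186). Only 2 to 3 Integrator subunits were called without PBS mouse 90 or 101 or treated mouse 72, 81, 88 or 98. With the length slope in the model none of the 147 genes passed (edgeR, 12 at an unadjusted p under 0.05).

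**Figure D5:**
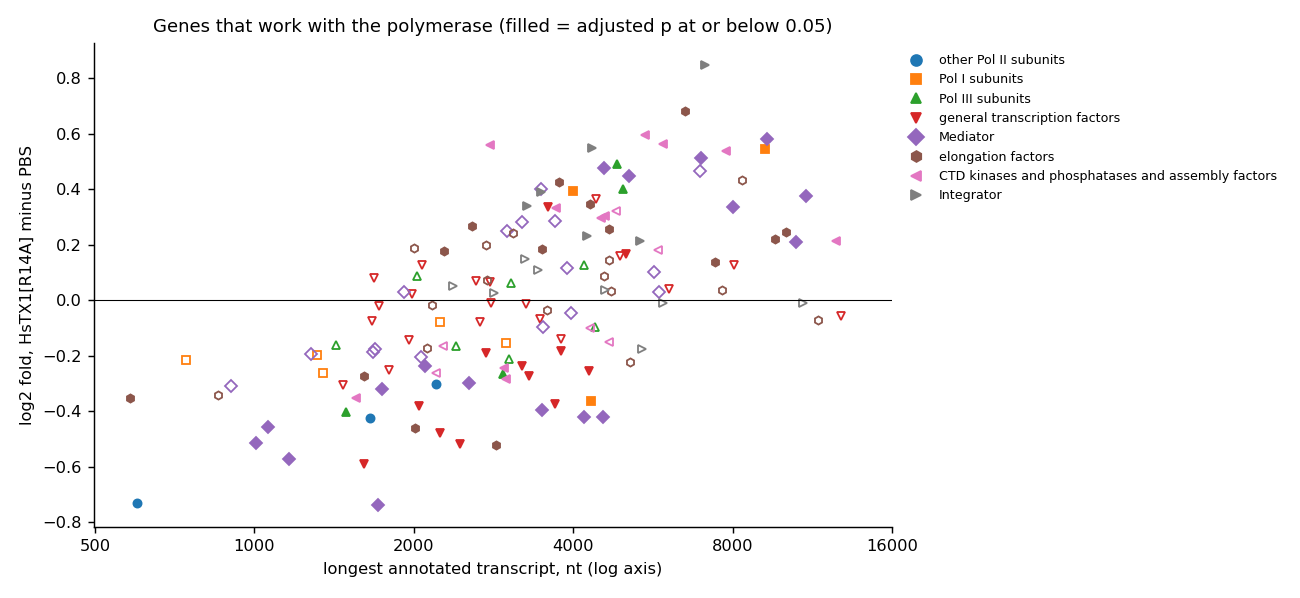
Log2 fold change (HsTX1[R14A] minus PBS) of the 147 tested genes of 8 transcription lists against the length of the longest annotated transcript (log axis), with filled symbols for an edgeR adjusted p at or below 0.05. The 37 filled points above 0 had a median length of 4975 nt and the 33 below it of 2245 nt.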

How the data were processed

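Whole-brain RNA of 21 SAMP8 mice was sequenced, each mouse giving 1 library. Reads were mapped by the authors with STAR (GRCm38) and quantified with Salmon in the nf-core/rnaseq pipeline, and the values they deposited are estimated counts of 16318 genes without normalization. The labels and the methods name different library kits, and whether counting used strand is not given in the sources used here. Whole numbers, within 0.01, made up 90.496% of the values, and each value was rounded. The table's fold changes, p-values and FDR of the authors' own comparison and 53 further per-sample columns (CPM and other libraries) were not used.

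Mice were grouped by the labels. The 16285 genes that filterByExpr kept were TMM-scaled and tested in R 4.3.3 with edgeR 4.0.16 (quasi-likelihood test, sex and treatment in the model, Benjamini-Hochberg, FDR 0.05), with SE taken as the log2 fold change over the square root of F. All 10 subunits passed the filter. Log2 CPM carries a prior count of 2. Correlations were tested in Python 3.11.15 with SciPy 1.17.1 by permuting mice (100000 resamples, exact with 9 mice). Transcript lengths came from GENCODE M21 (16239 of 16318 genes matched).

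The members and lists were chosen with earlier results of these data known. Named genes were all members, the 2 genes of each list with the smallest p in each direction among those called, and the 5 genes most correlated with Polr2a and with Polr2i, the member with the shortest longest transcript, and 1 gene so named is not reported here. None of the 48 pairs that share treatment and sex was a repeat (mean chi-square of 7.58 to 288 for each gene). Library totals were 14917174 counts or more, and counting error was not compared with the spread between mice. Tested on data simulated for the treatment comparison, the procedure recovered 175 of 200 genes changed 2-fold, with 8 false calls among 16271 genes. The rate of false calls with a length slope that differs between treatments was not tested. Alternatives were limma/voom (limma 3.58.1), DESeq2 1.42.0, RLE scaling, 2 other filters, no sex term, name form or length slope as covariate, the name forms taken separately, and leaving out every mouse in turn.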

Additional observations from a re-analysis of the deposited data

Results flagged for a closer look

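In the 9 HsTX1[R14A] mice, 1 male, mouse 93, stood apart for 4 of the 10 subunits by the gap to its nearest neighbour divided by the group's range (Dixon's criterion, 0.493 for 9 samples). Polr2b was lowest in it at 42.0 CPM (gap over range 0.520, next mouse 52.3 CPM). It held the highest values of Polr2e at 53.7 CPM (0.559, next mouse 42.7), of Polr2i at 23.5 CPM (0.532, next mouse 17.6) and of Polr2j at 46.9 CPM (0.537, next mouse 34.3). Chance marks about 1 in 20 groups by this criterion, and these values share 1 library. Its length slope, -0.14, was the lowest of the treated mice, whose other values ran up to 0.23. Its part in these levels was not tested.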

How the results depend on the processing

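Under limma/voom, DESeq2, RLE scaling and the 2 other filters on low counts, every treatment log2 fold change of the 10 subunits kept its direction, and the calls changed only for Polr2d, which passed the FDR in DESeq2 (-0.30) and with at least 10 counts in every mouse (-0.31). Name form as covariate left 1 subunit higher, 1 lower, 13 and 8 list genes higher and lower, and 2000 genes in all. Without a sex term 1 subunit was higher, with 19 and 15 list genes and 2994 genes in all. With the length slope as covariate, in the 15 mice of the more common name form and in the other 6 (chosen after seeing the data), these counts were 0, with 1863, 5797 and 507 genes at an unadjusted p under 0.05. The last 2 settings have fewer mice. For the others the cause was not tested.

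Leaving out each mouse gave 1 to 2 subunits higher, 1 to 6 lower, 17 to 47 list genes higher, 10 to 40 lower and 2300 (without PBS mouse 90) to 6616 (without HsTX1[R14A] mouse 93) genes in all, with 3015, 3332, 3127 and 3280 without treated mice 98, 71, 88 and 81. The difference in the Polr2a ratio between sexes ran from -1.05 without PBS mouse 103 to -0.24 without PBS mouse 84, and the counts of correlations past the threshold stayed at 9 of 9 and 10 of 10 by r. By rho they ran from 7 to 9 of 9 (Polr2c and Polr2f missed it without PBS mouse 84, 90, 101 or 103, and Polr2c without 105) and from 9 to 10 of 10 (Polr2c missed it without PBS mouse 82, 84, 85, 90, 91, 101 or 103), and with CPM by library total Polr2c missed it in both.

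Values that changed sign with the length slope as covariate were the treatment log2 fold changes of Polr2c (0.051), Polr2d (0.033), Polr2f (0.130), Polr2g (0.149), Polr2h (0.155), Polr2i (0.072), Polr2j (0.007), Polr2k (0.057), Polr1a (-0.004), Ercc2 (-0.067) and Ssu72 (0.043), the sex differences of Polr2g (-0.017), Polr2i (-0.025) and Polr2j (-0.033), and the interactions of Polr2d (-0.142), Polr2f (-0.048), Polr2g (-0.092), Polr2h (-0.083) and Polr2i (-0.109). Polr2b turned to -0.036 in the 6 mice of the less common name form. Interactions, none of which passed the threshold, also turned for Polr2d (-0.061) and Polr2h (-0.011) in limma/voom, for Polr2b with name form as covariate (-0.015), and for Polr2b (-0.020) and Polr2h (-0.024) in the 15 mice. Leaving out 1 mouse at a time moved the interaction of Polr2a from -0.410 to 0.119, of Polr2b from -0.046 to 0.111, of Polr2d from -0.119 to 0.118, of Polr2f from -0.025 to 0.311, of Polr2g from -0.056 to 0.261, of Polr2h from -0.024 to 0.140 and of Polr2i from -0.061 to 0.250. The paper states that treatment was randomized within cages, but the labels name no cage. Cage could therefore not enter the model, and no paired analysis was possible. The lowest count of any subunit was 64, for Polr2a in PBS mouse 103. Polr2d and Polr2h, with lower mean levels than Polr2a, went down to 120 and 121 counts in treated mouse 81.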
